A study of Mus musculus with 16 samples.

Results

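The 10 genes described here encode the cyclin-dependent kinases (CDKs) that act on RNA polymerase II, with their cyclins and regulators: Cdk7, Ccnh and Mnat1 of TFIIH, Cdk9, Ccnt1, Ccnt2 and Hexim1 of P-TEFb, and Cdk12, Cdk13 and Ccnk. They were chosen by name and not by their values, although earlier results of these data were known. All 10 were found among the 50686 gene identifiers of the count files. RNA was sequenced from mouse bone marrow cell lines of strain C57BL/6N transformed with BCR-ABL1p185+, an oncogene of B-cell acute lymphoblastic leukemia that the study delivered by retrovirus. Of the 8 lines, 4 were labelled wildtype (Cdk8 fl/fl in the study's methods, where no Cre is named) and 4 were Cdk8 KO (Cdk8Δ/Δ Vav-Cre, in which the Vav promoter drives Cre in blood cells). Every line was cultured for 48 h with DMSO and with 1 µM Senexin B, an inhibitor of CDK8 and its paralog CDK19, which gave 16 libraries in 4 groups of 4. All lines carry BCR-ABL1p185, so no group is free of the oncogene, and a line is a transformed culture and not a sorted population.

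CDK7 with cyclin H and MAT1 is the CDK-activating kinase and, as part of TFIIH, phosphorylates the C-terminal domain of RNA polymerase II at promoters. CDK9 with cyclin T1 or T2 forms P-TEFb, which releases paused polymerase into elongation, and HEXIM1 together with the 7SK RNA holds P-TEFb inactive. CDK12 and CDK13, each with cyclin K, phosphorylate the elongating polymerase, and loss of CDK12 is known to lower long DNA repair genes. CDK8 is the kinase of the Mediator complex. The comparisons below ask whether the RNA of the other transcriptional kinases differed when CDK8 was deleted or inhibited.

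Each library held between 13145876 and 18349425 counts. Levels are read counts relative to library size with TMM scaling (CPM). B-lineage markers other than Dntt were high, and the summed level of 9 such markers ran from 5192 to 7868 CPM. Dntt averaged 35.8 CPM and ran from 0.864 to 283 CPM between libraries, and Vpreb1 averaged 134 CPM. The T and NK list of 6 genes summed to between 0.216 and 81.6 CPM, nearly all of it Klrb1c, and Ncr1 was at 0 in all libraries. The 5 myeloid genes summed to between 0.441 and 24.8 CPM, nearly all of it Lyz2, with Elane at 0. With Senexin B over both genotypes and the line as a block, Cd79b alone of the 9 B-lineage markers had an adjusted p under 0.05 (log2 difference -0.38, adjusted p = 0.0308, edgeR), and its part in the results below was not tested. Without the lines numbered 1 in both genotypes, which stood apart as described next, Cd79b was at -0.35 (adjusted p = 0.0546), Dntt passed at 1.19 (adjusted p = 0.0188), and Dntt, Igll1 and Vpreb1 passed in Cdk8 fl/fl lines at 1.67, 0.97 and 0.74. The stromal gene Pdgfrb then passed over both genotypes at -2.82 (adjusted p = 0.0224), within the low stromal sum given next. The 4 erythroid genes summed to at most 1.49 CPM and the 3 stromal genes to at most 2.20 CPM. Counted over the whole gene and with DMSO, Cdk8 RNA stood at 44.3 CPM ± 7.10 (SD, n = 4) in Cdk8Δ/Δ Vav-Cre lines against 64.9 ± 3.03 in Cdk8 fl/fl lines, without overlap. With Senexin B it ran from 55.2 to 89.4 CPM and from 41.2 to 61.7 CPM, which overlap. A count over all exons does not show the loss of a single exon.

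The lines numbered 1 in both genotypes stood apart in their change with Senexin B. Across 14164 genes, their Senexin B minus DMSO differences correlated with each other at r = 0.48. With the other 6 lines they correlated at a median of -0.05 (12 pairs, from -0.18 to 0.22), while those 6 lines correlated among themselves at a median of 0.30 (15 pairs, from 0.12 to 0.54). These ranges overlap through Cdk8Δ/Δ Vav-Cre line 2, which correlated at 0.21 and 0.22 with the lines numbered 1 and at 0.12 to 0.14 with 3 of the other lines. Pld4, which was lower with Senexin B in every line, changed by -3.23 and -2.04 (log2) in these 2 lines and by -2.65 to -1.72 in the other 6. Csf2rb2, also lower in every line, changed by -2.44 and -2.24 against -2.37 to -0.76. Ly6d, higher in every line, changed by 2.89 and 1.11 against 0.67 to 4.35, and reached only 0.172 CPM in Cdk8Δ/Δ Vav-Cre line 1. The main Senexin B results are therefore given with and without the lines numbered 1 (left out after the data were seen), and the cause of the split was not tested.

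All 10 genes passed the filter on low counts in every comparison, and the lowest count of any of them in any library was 190 (Hexim1). Calls needed both a fold change over 2 and an adjusted p under 0.05 in edgeR's quasi-likelihood test. None of the 10 was called in any of 6 comparisons. Without a block, 0.00759% of all genes tested were called for genotype in DMSO and 0% in each of the other 5. These fits leave out the pairing of DMSO and Senexin B libraries of 1 line. With the line as a block, Senexin B called 0.346% of all genes in Cdk8 fl/fl lines. It called 0.0527% in Cdk8Δ/Δ Vav-Cre lines and 0.946% over both. Without a block and at an unadjusted p under 0.05, edgeR marked 1 of the 10 for genotype in DMSO (5.32% of all genes). It marked none of the 10 in the other comparisons. The shares of all genes in those were 1.55% for genotype with Senexin B, 3.8% and 1.83% for Senexin B in Cdk8 fl/fl and Cdk8Δ/Δ Vav-Cre lines, 4.86% for Senexin B over both, and 0.473% for the interaction. DESeq2 and limma voom likewise called none of the 10. Cells that hold less of an RNA and a smaller share of cells that hold it cannot be told apart in such bulk samples.

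**Figure D1:**
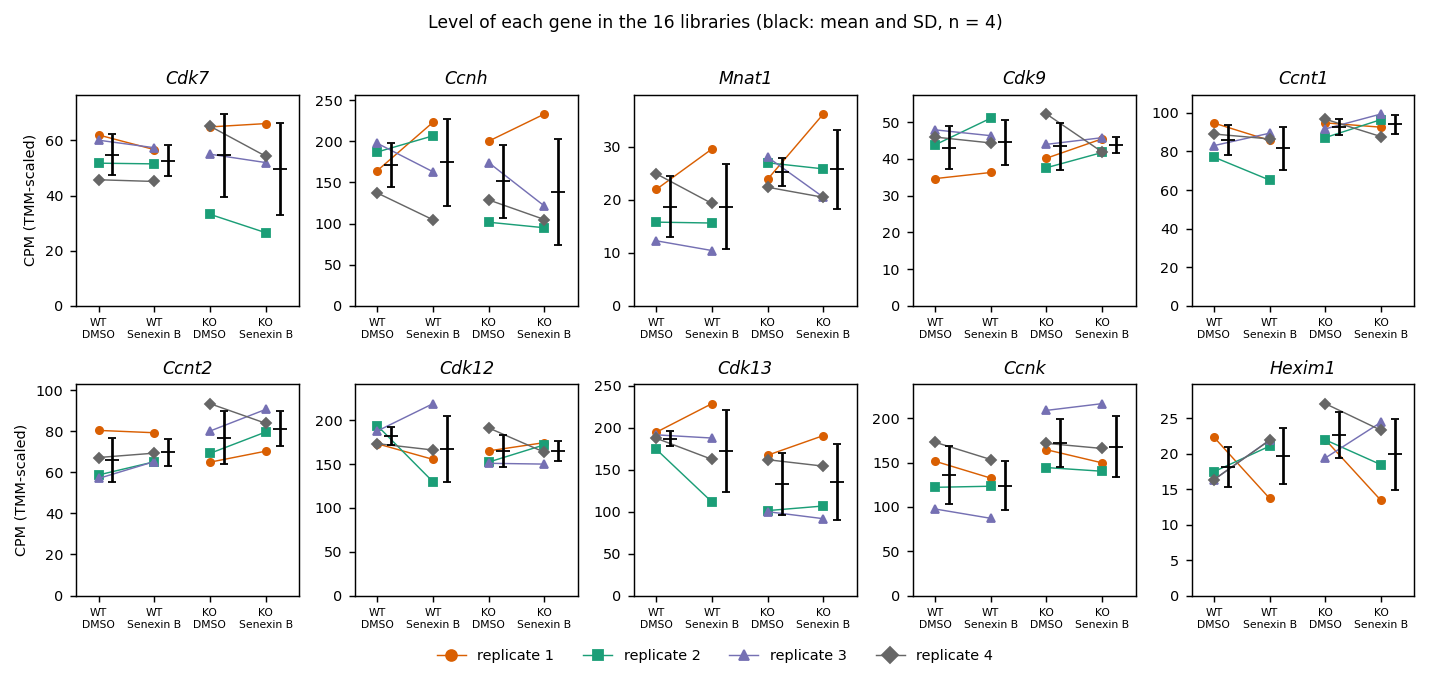
Level of each of the 10 genes in CPM (vertical axis, from 0) in the 16 libraries by group, with lines joining the DMSO and Senexin B libraries of 1 cell line and black bars for the group mean and SD (n = 4). Cdk13 is the gene whose DMSO groups do not overlap, from 174 to 195 CPM in WT (Cdk8 fl/fl) and from 100.0 to 167 CPM in KO (Cdk8Δ/Δ Vav-Cre) lines.

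Relative to length, the cyclins Ccnk and Ccnh were the most abundant of the 10 RNAs. Per kilobase of all annotated exons, Ccnk averaged 57.2 CPM per kb ± 13.2 (SD, n = 16 libraries) and Ccnh 51.2 ± 14.9, and Ccnk was the higher in 9 of 16 libraries, so these neighbours were not separated. Cdk13 followed at 22.2 CPM per kb ± 5.93 and Cdk12 at 14.5 ± 1.81, with Cdk13 above Cdk12 in all 16 libraries. Ccnt1 (9.67 ± 0.924) and Cdk9 (9.48 ± 1.06) were not separated, with Ccnt1 higher in 9 of 16 libraries. Cdk7 stood at 6.97 CPM per kb ± 1.46. Ccnt2 (5.94 ± 0.874) and Hexim1 (5.73 ± 1.098) were each the higher in 8 of 16 libraries, and Mnat1 was lowest at 4.11 ± 1.24.

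This order depended on the length used. Exons of every annotated transcript form count fully in the union of exons, which is 7595 bases for Cdk7 against 1988 in the principal transcript of GENCODE M21. The union comes from the deposited annotation (GENCODE M13), and for Ccnk it is shorter, at 2627 bases, than the principal transcript, at 2789. The order therefore also reflects the change of annotation, and the use of transcript forms was not measured. Per kilobase of principal transcript, Ccnh led at 77.7 CPM per kb ± 22.7, ahead of Ccnk at 53.9 ± 12.4, Cdk12 at 35.1 ± 4.40, Cdk13 at 30.2 ± 8.08, Cdk7 at 26.6 ± 5.57 and Cdk9 at 25.2 ± 2.82. The ranges of Cdk9 and Ccnt1, the next in order, did not overlap. Ccnt1 lay at 11.97 ± 1.14, Ccnt2 at 10.9 ± 1.60, Mnat1 at 8.84 ± 2.66 and Hexim1 at 5.73 ± 1.098. On both lengths Ccnh and Ccnk led and Mnat1 and Hexim1 were the lowest 2.

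**Figure D2:**
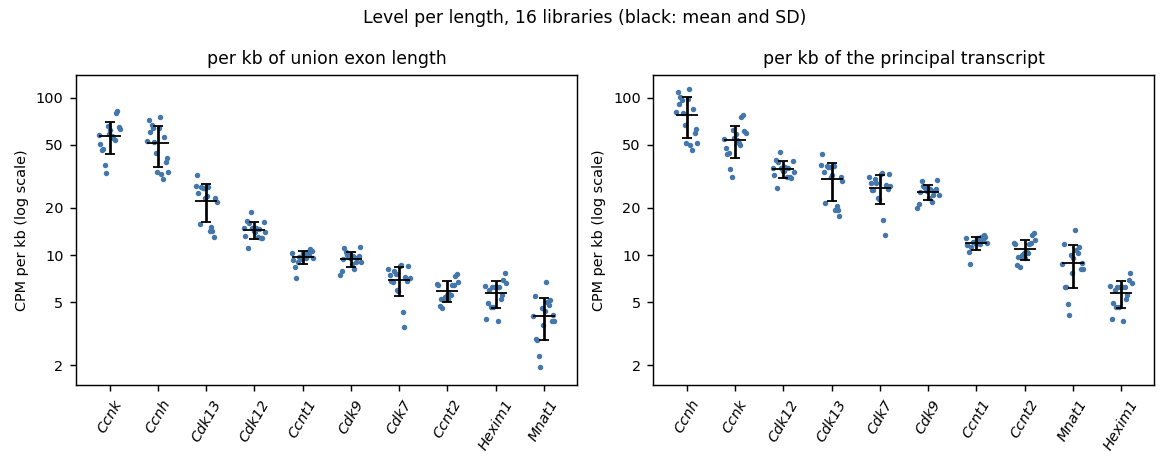
Level per length of the 10 genes in CPM per kb (logarithmic vertical axis) over 16 libraries, with mean and SD in black, on the union of exons (left) and on 1 principal transcript (right). Cdk7 moves from 6.97 to 26.6 CPM per kb between the panels, and Hexim1, whose lengths are equal, stays at 5.73.

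The kinase of the CDK-activating complex, Cdk7 (ENSMUSG00000069089, chr13:100697027-100730942, minus strand, GRCm38), had nearly equal mean levels in both genotypes. It measured 62.0, 51.7, 60.1 and 45.7 CPM in Cdk8 fl/fl lines 1 to 4 with DMSO, and 64.9, 33.2, 55.0 and 65.2 CPM in Cdk8Δ/Δ Vav-Cre lines. A single line, Cdk8Δ/Δ Vav-Cre line 2, was low, and it was low again with Senexin B at 26.5 CPM. The genotype difference was -0.01 on the log2 scale (standard error 0.22, adjusted p = 0.997 by edgeR's quasi-likelihood test), with a 95% interval from 0.704-fold to 1.41-fold. With Senexin B, Cdk7 measured 56.7, 51.5, 57.3 and 45.1 CPM in Cdk8 fl/fl and 66.1, 26.5, 52.0 and 54.3 CPM in Cdk8Δ/Δ Vav-Cre lines. It was lower than with DMSO in 7 of 8 lines, by -0.01 to -0.32 on the log2 scale, and 0.03 higher in Cdk8Δ/Δ Vav-Cre line 1. With the line as a block, the change over both genotypes was -0.11 (standard error 0.07, adjusted p = 0.503 by edgeR).

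Ccnh (ENSMUSG00000021548, chr13:85189408-85223469, plus strand), which encodes cyclin H, the partner that activates CDK7, varied more from line to line than between genotypes. It measured 164, 187, 198 and 137 CPM in Cdk8 fl/fl and 200.3, 102, 174 and 129 CPM in Cdk8Δ/Δ Vav-Cre lines with DMSO, and 223, 207, 163 and 105 CPM and 233, 94.95, 121 and 105 CPM with Senexin B. The groups overlapped throughout. The genotype difference was -0.18 (standard error 0.22, adjusted p = 0.937, edgeR) with DMSO and -0.33 (0.34) with Senexin B. The ratio of Ccnh to Cdk7 per length ran from 4.73 to 9.82 over the 16 libraries, with a mean of 7.39 ± 1.58 on the union of exons.

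Mnat1 (ENSMUSG00000021103, chr12:73123717-73273988, plus strand) encodes MAT1, the assembly factor that ties CDK7 and cyclin H together and anchors them in TFIIH. It measured 21.97, 15.8, 12.3 and 24.9 CPM in Cdk8 fl/fl and 23.9, 27.0, 28.1 and 22.4 CPM in Cdk8Δ/Δ Vav-Cre lines with DMSO. The Cdk8Δ/Δ Vav-Cre lines lay close together and the Cdk8 fl/fl lines spread below and among them. The difference was 0.44 (standard error 0.23, adjusted p = 0.904, edgeR), with an interval from 0.941-fold to 1.95-fold. With Senexin B the values were 29.6, 15.6, 10.4 and 19.3 CPM against 36.2, 25.9, 20.5 and 20.5 CPM, a difference of 0.46 (0.34). In both treatments Mnat1 had the most positive genotype difference of the 10 genes, and in neither did it pass the test.

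Cdk9 (ENSMUSG00000009555, chr2:32705784-32713076, minus strand), the kinase of P-TEFb, had similar levels in both genotypes. It measured 34.6, 43.8, 47.9 and 45.9 CPM in Cdk8 fl/fl and 40.2, 37.6, 43.9 and 52.2 CPM in Cdk8Δ/Δ Vav-Cre lines with DMSO. The difference was 0.02 (standard error 0.16, adjusted p = 0.994, edgeR) with DMSO and -0.03 (0.16) with Senexin B, and the intervals ran from 0.791-fold to 1.29-fold and from 0.768-fold to 1.26-fold. With Senexin B it measured 36.3, 51.1, 46.3 and 44.3 CPM and 45.5, 41.7, 45.8 and 41.9 CPM. Of its exon bases, 3.36% are shared with the microRNA genes Mir2861 and Mir3960 on the same strand, and reads there could not be assigned.

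The cyclins of P-TEFb, Ccnt1 (ENSMUSG00000011960, chr15:98538689-98570923, minus strand) and Ccnt2 (ENSMUSG00000026349, chr1:127774164-127808061, plus strand), both had slightly positive genotype differences. Ccnt1 measured 94.7, 77.0, 83.0 and 89.0 CPM in Cdk8 fl/fl and 94.8, 87.1, 91.6 and 96.7 CPM in Cdk8Δ/Δ Vav-Cre lines with DMSO. Its difference was 0.11 (standard error 0.10, adjusted p = 0.915, edgeR), with an interval from 0.920-fold to 1.27-fold, the narrowest of the 10 for genotype in DMSO. Ccnt2 measured 80.4, 58.7, 57.0 and 67.2 CPM and 64.9, 69.2, 80.0 and 93.4 CPM, a difference of 0.23 (0.16, adjusted p = 0.912). These groups overlapped for both cyclins. Of the exon bases of Ccnt1, 7.59% are shared with 9330020H09Rik on the opposite strand, the largest such share among the 10 genes.

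With Senexin B, Ccnt1 measured 85.7, 65.2, 89.4 and 86.4 CPM in Cdk8 fl/fl and 92.5, 96.5, 99.4 and 87.7 CPM in Cdk8Δ/Δ Vav-Cre lines. Ccnt2 measured 79.2, 65.1, 65.2 and 69.3 CPM and 70.2, 79.6, 90.6 and 83.8 CPM. In an exact two-sided permutation test of log2(CPM + 1), 4 lines against 4, p was 0.0571 for each cyclin. The smallest p this design allows is 0.0286. Both belonged to a family of 20 such tests, and the adjusted p was 0.381 for each. The edgeR genotype difference with Senexin B was 0.20 for Ccnt1 (standard error 0.15, unadjusted p = 0.198). For Ccnt2 it was 0.22 (0.14, unadjusted p = 0.163), and the adjusted p was 0.9997 for both. The ratio of Ccnt1 to Ccnt2 was lower with Senexin B than with DMSO in 7 of 8 lines, with a median log2 change of -0.09.

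Hexim1 (ENSMUSG00000048878, chr11:103116231-103119725, plus strand), the inhibitor of P-TEFb, changed most of the 10 inside lines. With DMSO it measured 22.3, 17.4, 16.3 and 16.3 CPM in Cdk8 fl/fl and 21.96, 21.9, 19.4 and 27.0 CPM in Cdk8Δ/Δ Vav-Cre lines. The groups overlapped through Cdk8 fl/fl line 1. The difference was 0.32 (standard error 0.17, adjusted p = 0.904, edgeR), with an interval from 0.953-fold to 1.64-fold. With Senexin B the values were 13.7, 21.04, 21.9 and 21.9 CPM against 13.4, 18.4, 24.4 and 23.3 CPM, a difference of 0.02 (0.26). Both lines numbered 1 were lowest in their group with Senexin B.

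Cdk12 (ENSMUSG00000003119, chr11:98203059-98278504, plus strand) differed little between genotypes. It measured 173, 194, 188 and 173 CPM in Cdk8 fl/fl and 165, 152, 151 and 191 CPM in Cdk8Δ/Δ Vav-Cre lines with DMSO, a difference of -0.14 (standard error 0.11, adjusted p = 0.913, edgeR). With Senexin B the values were 155, 130, 219 and 166 CPM against 175, 172, 150.0 and 164 CPM. Its interval for genotype in DMSO ran from 0.760-fold to 1.08-fold.

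Of the 10 genes, Cdk13 (ENSMUSG00000041297, chr13:17715962-17805097, minus strand), the paralog of Cdk12, was alone in having an unadjusted p under 0.05 for genotype in the main edgeR fit. With DMSO it measured 195, 174, 192 and 188 CPM in Cdk8 fl/fl and 167, 101, 100.0 and 162 CPM in Cdk8Δ/Δ Vav-Cre lines. The highest Cdk8Δ/Δ Vav-Cre line lay below the lowest Cdk8 fl/fl line, as it did for 1.57% of all genes, and another 1.51% did not overlap in the other direction (3.08% in all). The difference was -0.49 on the log2 scale (standard error 0.19), with an interval from 0.525-fold to 0.961-fold, an unadjusted p of 0.0308 and an adjusted p of 0.897 by edgeR. The exact two-sided permutation test gave p = 0.0286, the smallest it can give, which follows from groups that do not overlap and adds nothing to it. It was 1 of 20 such tests over the 10 genes and both treatments, with an adjusted p of 0.381. Cdk8Δ/Δ Vav-Cre lines 2 and 3 carried most of the difference, with lines 1 and 4 close below the lowest Cdk8 fl/fl line. With Senexin B the same lines measured 191, 107, 91.6 and 154 CPM against 229, 112, 188 and 162 CPM in Cdk8 fl/fl lines, and the groups overlapped, with a difference of -0.34 (0.29). No gene of the 10 was free of overlap with Senexin B, as 1.04% of all genes were (0.561% higher and 0.477% lower in Cdk8Δ/Δ Vav-Cre lines). With the replicate number as a block, Cdk13 in DMSO stood at -0.54 (unadjusted p = 0.0255, adjusted p = 0.962, edgeR), alone of the 10 under 0.05, as 4.11% of all genes were. None of the 10 was in Senexin B, where 1.96% were. Between genotypes no label ties lines by number, so this block does not make the comparison paired.

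Ccnk (ENSMUSG00000021258, chr12:108179738-108203359, plus strand), which encodes the cyclin of both kinases, had a genotype difference in the opposite direction that did not pass the test. It measured 152, 122, 97.7 and 173 CPM in Cdk8 fl/fl and 165, 144, 209 and 172 CPM in Cdk8Δ/Δ Vav-Cre lines with DMSO, a difference of 0.34 (standard error 0.19, adjusted p = 0.908, edgeR). With Senexin B the values were 133, 123, 87.1 and 153 CPM against 150, 140.3, 217 and 166 CPM, a difference of 0.44 (0.21). The groups overlapped in both treatments.

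Within a library, the ratio of Ccnk to the sum of Cdk12 and Cdk13 per length put these values together. On the union of exons and with DMSO it was 1.37, 1.13, 0.863 and 1.60 in Cdk8 fl/fl and 1.66, 2.01, 2.95 and 1.67 in Cdk8Δ/Δ Vav-Cre lines. These ranges did not overlap, although Cdk8Δ/Δ Vav-Cre line 1 and Cdk8 fl/fl line 4 were nearly equal. With Senexin B it was 1.11, 1.75, 0.734 and 1.58 against 1.36, 1.80, 3.20 and 1.77, and the ranges overlapped. The ratio was built from members whose values were known and was not tested.

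**Figure D3:**
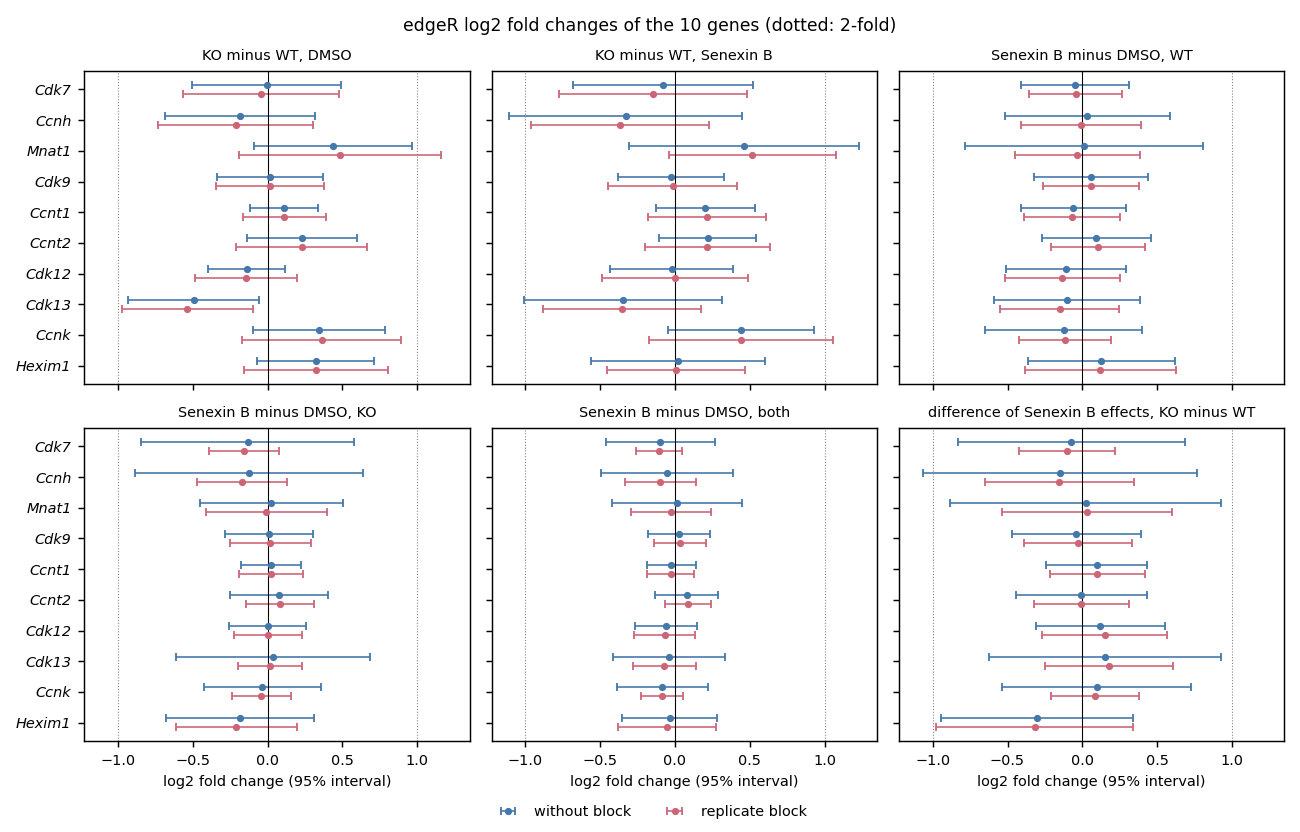
edgeR log2 fold changes with 95% intervals (horizontal axis) of the 10 genes in 6 comparisons, without a block (blue) and with the replicate number as a block (red), where KO is Cdk8Δ/Δ Vav-Cre and WT is Cdk8 fl/fl. All intervals cross 0 except those of Cdk13 for genotype in DMSO, and those of Senexin B over both genotypes lie between 0.710-fold and 1.36-fold.

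Senexin B left the level of all 10 genes within narrow bounds when lines were pooled. Over both genotypes and with the line as a block, differences ran from -0.11 (Cdk7) to 0.09 (Ccnt2) on the log2 scale, and the 10 intervals together spanned 0.769-fold to 1.21-fold. None of the 10 had an unadjusted p under 0.05, as 16.4% of all genes did. None had an adjusted p under 0.05 (2.63%) and none was called (0.946%). In Cdk8 fl/fl lines the blocked differences ran from -0.15 (Cdk13) to 0.12 (Hexim1), with none of the 10 called (0.346% of all genes), none at an adjusted p under 0.05 (0.354%) and none at an unadjusted p under 0.05 (10.3%). In Cdk8Δ/Δ Vav-Cre lines they ran from -0.21 (Hexim1) to 0.09 (Ccnt2), with none of the 10 called (0.0527% of all genes) and none at an unadjusted p under 0.05 (10.3%). Across these blocked fits the adjusted p of edgeR was lowest for Cdk7 over both genotypes, at 0.503.

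The effect of Senexin B was also compared between the genotypes. Without a block the interaction ran from -0.30 (Hexim1) to 0.15 (Cdk13), where a negative value means a lower change in Cdk8Δ/Δ Vav-Cre lines. None of the 10 had an unadjusted p under 0.05, as 0.473% of all genes did, and with the block none did either, against 3.24% of all genes. With the block the intervals of the 10 genes together spanned 0.507-fold (Hexim1) to 1.52-fold (Cdk13), and that of Ccnh ran from 0.638-fold to 1.27-fold. Without the lines numbered 1, blocked interactions ran from -0.42 (Hexim1, standard error 0.22, adjusted p = 0.668, edgeR) to 0.25 (Cdk13, 0.20, adjusted p = 0.797). None of the 10 then had an unadjusted p under 0.05 (8.31% of all genes) and none was called (0.0142%).

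Inside single lines the changes were larger than these averages, and they went in opposite directions in different lines. Hexim1 changed by -0.70 and -0.71 on the log2 scale in the lines numbered 1 of Cdk8 fl/fl and Cdk8Δ/Δ Vav-Cre. In the other Cdk8 fl/fl lines it changed by 0.27, 0.42 and 0.42, and in the other Cdk8Δ/Δ Vav-Cre lines by -0.25, 0.33 and -0.22. Mnat1 went the other way, with changes of 0.43 and 0.60 in the lines numbered 1 and from -0.45 to -0.02 in the other 6. Ccnh changed by 0.44 and 0.22 against -0.52 to 0.14, and Cdk13 by 0.23 and 0.19 against -0.64 to 0.08. For these 4 of the 10 genes both lines numbered 1 lay outside the range of the other 6, as they did for 27.8% of all genes.

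No gene of the 10 moved in 1 direction in all 8 lines, as 4.55% of all genes did. Cdk7 was lower in all 4 Cdk8 fl/fl lines, where 17.9% of all genes moved in 1 direction, and none of the 10 moved so in the 4 Cdk8Δ/Δ Vav-Cre lines, where 19.2% did. Without the lines numbered 1, Cdk7 and Mnat1 were lower with Senexin B in all 6 lines, as 6.69% of all genes were, and 13.5% moved in 1 direction. Cdk7 was lower by a mean of -0.13 and Mnat1 by a mean of -0.21 on the log2 scale. In the blocked fit of these 6 lines the 10 genes ran from -0.24 (Ccnh) to 0.16 (Hexim1). Ccnh, at -0.24, had a standard error of 0.10, an unadjusted p of 0.0334 and an adjusted p of 0.172 (edgeR), and Mnat1 was at -0.21 (0.10, adjusted p = 0.242). Ccnh was 1 of 10 at an unadjusted p under 0.05, as were 23.5% of all genes, and none of the 10 was called (2.57%). Hexim1 was at 0.37 in the 3 Cdk8 fl/fl lines (standard error 0.16, adjusted p = 0.217) and at -0.04 in the 3 Cdk8Δ/Δ Vav-Cre lines (0.16, adjusted p = 0.946). It was 1 of 10 at an unadjusted p under 0.05 in the Cdk8 fl/fl lines (22% of all genes), where none was called (4.15%). In the 3 Cdk8Δ/Δ Vav-Cre lines Ccnh, at -0.31 (0.11, adjusted p = 0.362), was 1 of 10 at an unadjusted p under 0.05 (11.2%), and none was called (0.234%). With all 8 lines in the same blocked fit, Ccnh was at -0.10, Mnat1 at -0.03 and Hexim1 at -0.05.

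**Figure D4:**
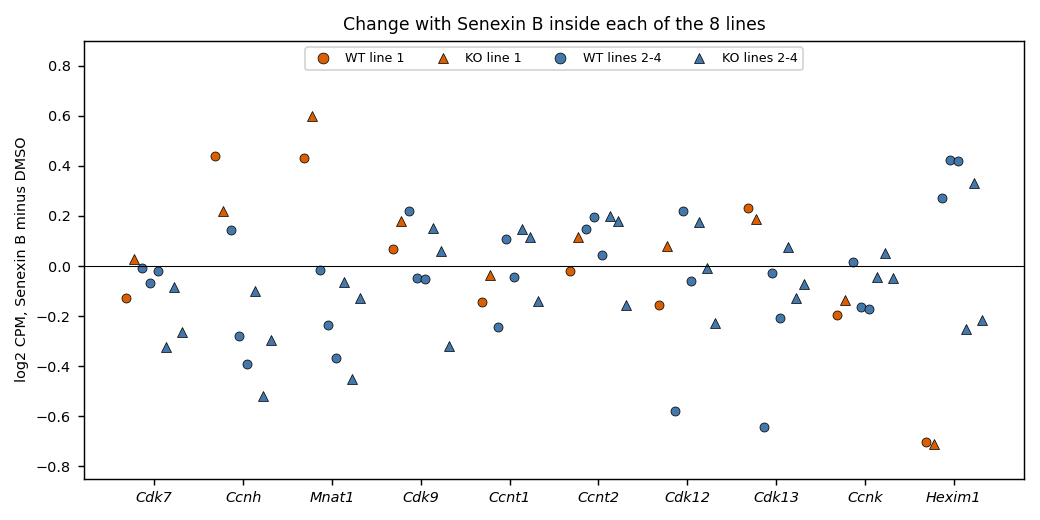
Difference in log2 CPM between Senexin B and DMSO (vertical axis) inside each of the 8 lines for the 10 genes, with the lines numbered 1 in orange and the other 6 in blue, WT (Cdk8 fl/fl) as circles and KO (Cdk8Δ/Δ Vav-Cre) as triangles. Both orange points of Hexim1 lie near -0.7 while the blue points run from -0.25 to 0.42, and those of Mnat1, Ccnh and Cdk13 lie above all blue points.

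The stretch upstream of the gene start is shown for Hexim1 and Mnat1, which changed furthest in opposite directions in Cdk8Δ/Δ Vav-Cre line 1. It is also shown for Ccnk, which correlated with Mnat1 across libraries at r = 0.67 (Spearman's rho 0.40). The sequences are from RefSeq (GRCm38.p6), each on the strand of its gene and ending where the gene begins in the deposited annotation. Capitals mark matches on either strand to 5 motifs, and overlapping matches run together. The motifs searched were the TATA-like element TATANA and the NF-Y box CCAAT. The GC box was searched as GGGCGG. The core of ETS factor sites was searched as CCGGAA. The E-box was searched as CACGTG.
Hexim1, chr11:103116075-103116230, plus strand: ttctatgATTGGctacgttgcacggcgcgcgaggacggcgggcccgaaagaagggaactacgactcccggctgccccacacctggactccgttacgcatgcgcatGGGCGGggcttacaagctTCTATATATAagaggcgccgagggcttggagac
Mnat1, chr12:73123467-73123716, plus strand: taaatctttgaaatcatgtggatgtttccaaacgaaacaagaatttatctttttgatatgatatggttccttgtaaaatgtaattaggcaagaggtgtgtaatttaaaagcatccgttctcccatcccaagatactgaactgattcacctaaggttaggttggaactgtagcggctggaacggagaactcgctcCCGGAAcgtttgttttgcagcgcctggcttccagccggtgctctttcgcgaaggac
Ccnk, chr12:108179488-108179737, plus strand: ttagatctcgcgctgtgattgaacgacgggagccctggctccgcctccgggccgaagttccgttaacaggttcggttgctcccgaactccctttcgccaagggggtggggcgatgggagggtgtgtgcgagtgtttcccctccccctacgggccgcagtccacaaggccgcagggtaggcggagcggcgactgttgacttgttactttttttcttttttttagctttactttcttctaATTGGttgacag

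Hexim1 was the only member of the 9 with a RefSeq entry whose 250 upstream bases held TATANA, which 23.4% of 27025 promoters of the same length hold. Mnat1 held a single CCGGAA (12.2% of promoters) and no match to the other 4 motifs. Ccnk held a single CCAAT (34.5%), on the reverse strand. GGGCGG, held by 32.9% of promoters, was found in Cdk7, Cdk9, Ccnt1, Ccnt2, Cdk12, Cdk13 and Hexim1. CACGTG, held by 6.05%, was found in Cdk7. Ccnh had no entry. In the deposited annotation Cdk9, Ccnt1 and Cdk12 begin at, near or beyond the far end of this window, and Hexim1 begins inside the RefSeq window, so most or part of the searched bases lie within those genes. These matches are letters in a window and were not tied to the values above.

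Differences between lines set most of the spread of Cdk7 and Ccnk. The mean of a line's libraries ran over 2.20-fold for Cdk7, lowest in Cdk8Δ/Δ Vav-Cre line 2, and over 2.31-fold for Ccnk, highest in Cdk8Δ/Δ Vav-Cre line 3. For both, the spread between lines of a genotype (SD of 0.38 and 0.30, log2) was 2.41 and 2.47 times the root mean square change with Senexin B (0.16 and 0.12). Their DMSO and Senexin B levels correlated over the 8 lines at r = 0.96 and 0.97, against a median of 0.60 for all genes. Mnat1 ran over 2.59-fold between lines, the widest of the 10, and Ccnh and Cdk13 over 2.20-fold each.

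Hexim1 and Cdk12 were the opposite. Their lines of 1 genotype differed little (SD of 0.17 and 0.13, against a median of 0.36 for all genes). The root mean square change with Senexin B was larger than this SD, at 0.45 and 0.25, against a median of 0.41 for all genes. That of Cdk12 was larger than in only 19.6% of genes, and that of Hexim1 than in 55.7%. The ratio of SD to change was 0.37 and 0.53, against a median of 0.87 for all genes, so a change above the SD was common. The Senexin B level of a line was not in step with its DMSO level for either (r = -0.31 and 0.00 over 8 lines). Ccnt1 and Cdk9 were even on both measures, with SDs of 0.11 and 0.16 between lines and changes of 0.14 and 0.16. The SD between lines of Ccnt1 was lower than that of all but 3.23% of genes.

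**Figure D5:**
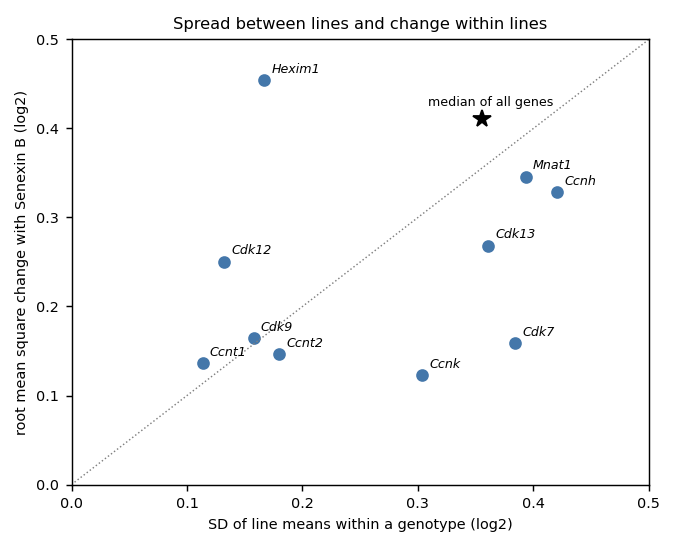
SD of line means within a genotype (horizontal axis, log2) against the root mean square change with Senexin B (vertical axis, log2) for the 10 genes, with the median of all genes as a star and equality as a dotted line. Cdk7 and Ccnk lie far to the right of the line and Hexim1 far above it.

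Members of related complexes did not all vary together. Over the 16 libraries, which come from 8 lines and so are not independent, log2 CPM of Cdk7 and Ccnh correlated at r = 0.68 (Spearman's rho 0.61), while Mnat1, the other member of their complex, stood at -0.15 with Cdk7 and -0.05 with Ccnh. The alternative members Cdk12 and Cdk13 correlated at 0.57 (0.58), and Ccnt1 and Ccnt2 at 0.58 (0.64). Removing group means left the positive values at 0.67, 0.54 and 0.46. Cdk9 showed no such relation with its cyclins Ccnt1 (r = -0.27) and Ccnt2 (-0.12), or with Hexim1 (0.15). Removing group means left these at -0.31, -0.17 and 0.16. Ccnk was inversely related to Cdk12 (-0.48) and Cdk13 (-0.44), at -0.54 and -0.20 with group means removed. Genes of different complexes reached similar values of r, with 0.67 for Mnat1 and Ccnk (Spearman's rho 0.40) and 0.67 for Ccnt2 and Ccnk (0.65). With group means removed these 2 pairs stood at 0.51 and 0.58. Over all 45 pairs the median was -0.01, from -0.55 (Ccnh and Hexim1) to 0.68. Changes with Senexin B inside the 8 lines correlated otherwise, at 0.91 for Ccnh and Mnat1 and 0.71 for Cdk9 and Ccnt2. In these changes Cdk7 stood at only 0.15 with Ccnh and 0.15 with Mnat1, and Cdk9 at 0.05 with Ccnt1.

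The genes whose log2 CPM was most like that of Hexim1 among 14163 others were Ubap2l (r = 0.95), Gm8326 (0.91) and Gm8337 (0.90). For Cdk9 they were Ran (0.87), Prmt1 (0.87) and Gm13461 (0.87). These values are the highest of a search over all genes and are given as a description.

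The other genes of these pathways were examined as lists. With all lines, none of their genes passed an adjusted p under 0.05 in any comparison. For genotype in DMSO, the 7 core TFIIH genes had a median log2 difference of 0.09, from -0.14 (Gtf2h1) to 0.18 (Gtf2h3), and the 7 genes of the 7SK particle and P-TEFb recruitment a median of -0.05, from -0.18 (Hexim2) to 0.20 (Ncl). In the super elongation complex 7 of 8 tested genes had negative values, with a median of -0.12 and Eaf2 lowest at -0.51 (standard error 0.29, adjusted p = 0.908, edgeR). Among 8 short-lived transcripts 7 had negative values, with a median of -0.48, and 2 had an unadjusted p under 0.05, as 5.32% of all genes did. Egr1 was lowest of them at -1.33 (0.46, adjusted p = 0.897). The median of all 13174 genes tested was 0.00.

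Senexin B over both genotypes, with the line as a block, gave positive values for all 6 NELF and DSIF genes, which hold paused polymerase, with a median of 0.08 (0.09 without the lines numbered 1). Of 8 DNA repair genes known to need CDK12, 6 were positive, with a median of 0.18, and 7 with a median of 0.24 without the lines numbered 1. With all lines, 4 of these 8 had an unadjusted p under 0.05 by edgeR (16.4% of all genes), and the lowest adjusted p was 0.173. Without the lines numbered 1, 4 of 8 had such an unadjusted p, against 23.5% of all genes. Of 8 short-lived transcripts, which respond early to a loss of CDK9 activity, 7 were negative, with a median of -0.25. Without those lines all 8 were negative, with a median of -0.39. With all lines, 8 of 8 were negative in Cdk8 fl/fl lines (median -0.41) and 4 of 8 in Cdk8Δ/Δ Vav-Cre lines (median -0.01). Their interaction was positive for all 8 (median 0.60), with none at an unadjusted p under 0.05 by edgeR (3.24% of all genes). CDK9 activity was not measured. For Senexin B over both genotypes, 6933 of all 14164 genes were positive, and the lists were not tested as sets.

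Single genes of these pathways passed an adjusted p under 0.05 only when the lines numbered 1 were left out. Over both genotypes, Egr1, an early response transcription factor, changed by -0.84 (standard error 0.31, adjusted p = 0.204, edgeR with the block) with all 8 lines and by -1.21 (0.24, adjusted p = 0.0173) with the other 6. Aff4, the scaffold of the super elongation complex, changed by -0.36 (0.10, adjusted p = 0.0889) and by -0.42 (0.11, adjusted p = 0.0398). In Cdk8 fl/fl lines alone and without line 1, Egr1, Klf6 and Ctdsp2 passed, at -1.57, -1.22 and -0.71. There 4.15% of all genes passed with a fold change over 2 in addition. In Cdk8Δ/Δ Vav-Cre lines without line 1, Egr1, Klf6 and Ctdsp2 stood at -0.85, -0.21 and -0.07. The interaction in the same 6 lines did not pass for any of the 3, at 0.72 (0.39, adjusted p = 0.682) for Egr1, 1.02 (0.37, adjusted p = 0.473) for Klf6 and 0.64 (0.17, adjusted p = 0.266) for Ctdsp2 (edgeR with the block), so a difference between the genotypes was not shown.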

How the data were processed

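Poly(A) RNA of 16 libraries was prepared with a SENSE mRNA-Seq kit and sequenced by the study. The authors trimmed reads with Trimmomatic, aligned them with STAR to GRCm38 and counted them per gene with featureCounts 1.5.1 (GENCODE M13). The deposited values are raw counts. Per the file headers, no strand, multi-mapping or overlap option was set, so reads in exons shared by genes were dropped. Gene models were identical in all files. Of 50686 identifiers, 29942 had at least 1 count.

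The main test was the robust quasi-likelihood test of edgeR 4.0.16 (run in R 4.3.3), after filterByExpr and TMM scaling and with Benjamini-Hochberg adjustment over all genes tested. Standard errors were derived from the log2 fold change and F. DESeq2 1.42.0 and limma 3.58.1 (voom) were alternatives. Genotype was also compared by exact permutation tests (scipy 1.17.1). The within-line change is the difference of log2 CPM with a prior count of 0.5. The calling was tested on simulated data. No 2 libraries of a group were copies (24 pairs, chi-square per degree of freedom of at least 49.0).

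The replicate number pairs the libraries of 1 line. Deviations from group means correlated at 0.60 to 0.77 for the 4 Cdk8 fl/fl and 0.77 to 0.86 for the 4 Cdk8Δ/Δ Vav-Cre pairs, and at -0.55 to 0.21 for different numbers. Between genotypes no label ties lines by number, and same-number deviations correlated at a mean of 0.01 (DMSO) and 0.10 (Senexin B). The members, gene lists and tests were chosen with earlier results of these data known. Named are the members, Cdk8, the 3 genes most like Cdk9 and Hexim1, and extreme genes and genes past the adjusted p limit of each list. Pld4, Csf2rb2 and Ly6d were named in addition to these. Levels per length used the union of exons, with the principal transcript of GENCODE M21 added after the data were seen.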

Additional observations from a re-analysis of the deposited data

Results flagged for a closer look

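In 2 of 40 sets of 4 libraries (10 genes in 4 groups), a single library lay far from the other 3, by a gap relative to the range that chance exceeds in about 5% of such sets. Ccnt1 was 65.2 CPM in Cdk8 fl/fl line 2 with Senexin B, against 85.7 to 89.4 CPM in the other lines of that group. The same library held the lowest Cdk12 (130 CPM) and Cdk13 (112 CPM) of its group. Hexim1 was 13.7 CPM in Cdk8 fl/fl line 1 with Senexin B, against 21.04 to 21.9 CPM. Cdk8Δ/Δ Vav-Cre line 1, also lowest in its group, was at 13.4 CPM. The cause was not tested for either gene.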

How the results depend on the processing

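The count of called members was 0 under every alternative run (14 to 31 per comparison), and none of 1300 member values under these alternatives had an adjusted p under 0.05. Of them 177 had another sign than the value reported, all in values with an unadjusted p over 0.05. Cdk13 for genotype in DMSO stayed negative, from -0.62 to -0.38. Its unadjusted p, by the test of each alternative, was under 0.05 in 8 of 14 and reached 0.0776. Mnat1, Ccnk and Hexim1 each had such a p under 0.05 in 1 of 14. The replicate block changed no call of a member (0 in all 6 comparisons), but it moved the count over all genes from 0 to 45, 7 and 134 for Senexin B in Cdk8 fl/fl lines, in Cdk8Δ/Δ Vav-Cre lines and over both, and from 1 to 0 for genotype in DMSO. DESeq2 called 21 genes for genotype in DMSO and 3 in Senexin B, where edgeR called 1 and 0. For Senexin B it called 18 in Cdk8 fl/fl lines, 0 in Cdk8Δ/Δ Vav-Cre lines and 16 over both, and 0 for the interaction, where edgeR called 0 each time. Without the lines numbered 1 (chosen after seeing the data) and with the block, edgeR called 538, 31, 361 and 2 genes in the same 4, and the cause was not tested. Leaving out 1 library or line gave 0 members called in each comparison and between 0 and 5 genes.

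The order of members by level was the same for all 10 in TPM, and for 2 (Cdk9 and Ccnt2) per kilobase of principal transcript. The count of members that moved in 1 direction in every line was 0 with 8 lines, 2 without the lines numbered 1 (Cdk7 and Mnat1), and from 0 to 1 when each line was left out, with 1 (Cdk7) without Cdk8Δ/Δ Vav-Cre line 1. The 1 ratio whose genotypes did not overlap kept this on both lengths. The median correlation of members was -0.01, and 0.09 after removing group means. With 4 lines per genotype, the 95% interval of a genotype difference in DMSO was narrowest for Ccnt1 (0.920-fold to 1.27-fold) and widest for Mnat1 (0.941-fold to 1.95-fold).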
